A study of Homo sapiens with 4 samples.

Results

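Albumin, the fetuins and the other carrier proteins that the liver releases into plasma were examined as a group of 10 genes, ALB, AHSG, FETUB, GC, TTR, RBP4, AMBP, ITIH2, ITIH3 and ITIH4. Members were found by the gene symbol of the array platform, and where a gene has several probe sets the brightest by mean over the 4 arrays stands for it. Of the 10 genes, 8 had a probe set of their own, among 22395 genes with 1 symbol and 53617 probe sets in all. GC had none here and was not analysed here. ITIH4 shared its probe set with MUSTN1, so no value is given for it. Each of the 8 measured genes had exactly 1 probe set.

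The arrays came from Huh7, an established human cell line from a hepatocellular carcinoma, transfected either with the plasmid pcFLAG, the control, or with pcFLAG-hSTYK1, which carries human STYK1, a receptor-like kinase. Each group had 2 arrays and no other treatment, time or clone is given in the labels. The labels do not state whether replicates were grown as separate cultures, so p-values rest on the spread among these 4 samples alone, which could be technical. The comparison shows whether the carrier protein genes differ when STYK1 is overexpressed.

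Hepatocytes make most proteins of blood plasma and release them through the endoplasmic reticulum and Golgi apparatus. Albumin holds the osmotic pressure of plasma and carries fatty acids, bilirubin and drugs, and the other proteins of the group carry hormones and vitamins, bind calcium phosphate or build the hyaluronan-binding inter-alpha-trypsin inhibitors. High transcription of these genes in liver rests on liver-enriched transcription factors of the HNF4, C/EBP and FOXA families.

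Values are log2 signals as the authors deposited them, and a difference is always STYK1 minus control on that log2 scale. Background was set from 423 probe sets of olfactory receptors, genes not expected in liver cells: the floor of an array is their 95th percentile there, and it ranged from 0.725 to 0.774. STYK1 gave 0.26 and 0.61 on the control arrays, both under the floor, and 7.40 and 7.86 on the STYK1 arrays, which is at least 118-fold higher against the floor (limma, adjusted p = 0.0373). That call was lost with the replicate number as a block and when any 1 of the 4 arrays was left out. Markers of hepatocytes were above the floor by their mean for 16 of 18 measured genes, the exceptions being the cytochromes CYP2E1 and CYP3A4, and those of hepatoblasts and liver cancer for 10 of 10. For markers of fibroblasts and stellate cells the count was 2 of 11, for endothelial cells 1 of 11, for immune cells 6 of 14 and for cholangiocytes 5 of 10. Over all genes it was 11385 of 22395, so the immune and cholangiocyte counts lie near the share of all genes. The endothelial marker and 1 of the 2 fibroblast markers were above the floor of their own array on only 2 of the 4 arrays. Probe sets differ in their response, so a signal under the floor is not read as absence of a transcript, here or below.

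None of the 8 measured carrier genes passed the test. ALB, AHSG, TTR, RBP4, AMBP and ITIH2 gave signals of 7.08 to 10.6 on every array, while FETUB and ITIH3 lay at the floor. The 95% intervals of the 6 genes with clear signals ran from a ratio of 0.673 to one of 1.29, and none of them reached a 2-fold change in either direction. The lowest difference was that of AMBP, at −0.27, and the highest that of ALB, at 0.14. At an adjusted p under 0.05 limma called 0.00187% of all probe sets, that of STYK1 alone, and at an unadjusted p under 0.05 the share was 3.72% of all genes, beside 0 of the 8 carrier genes.

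**Figure D1:**
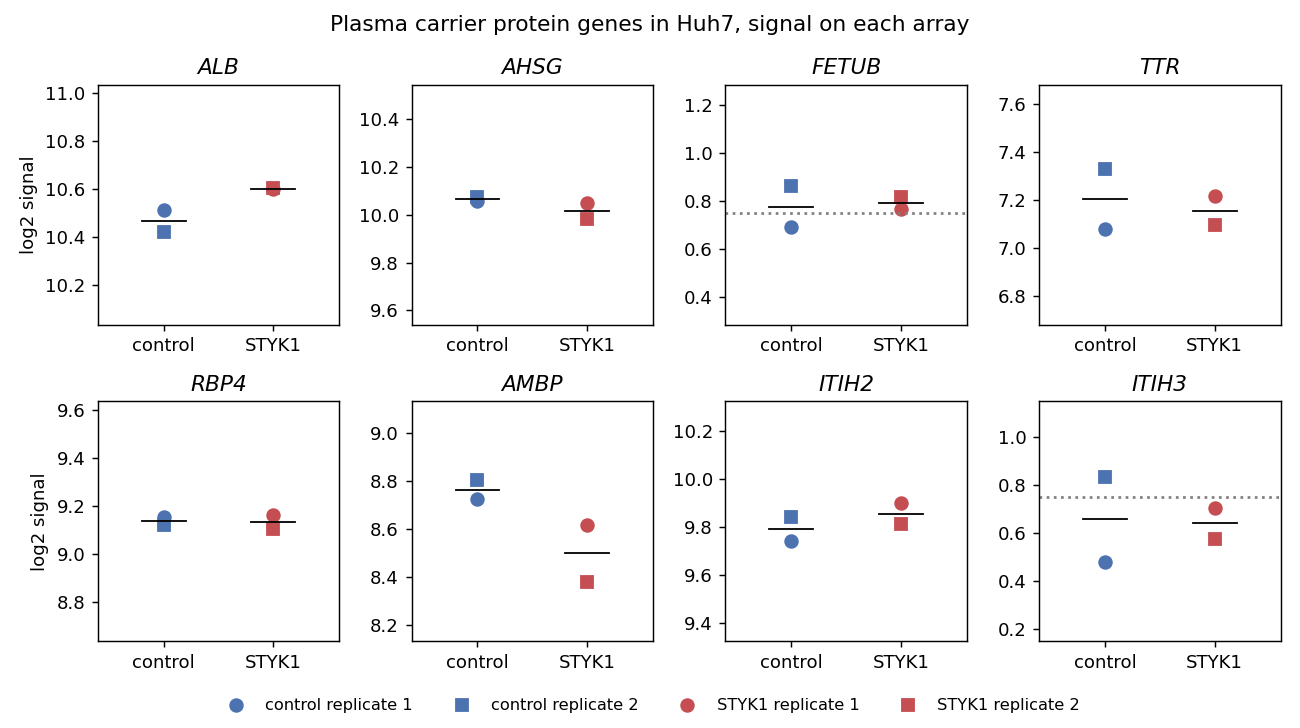
Log2 signal of the 8 measured carrier genes (y axis, 1.0 log2 unit in each panel) in the control and STYK1 arrays (x axis), with circles for replicate 1, squares for replicate 2 and a bar at each group's mean; the dotted line in the FETUB and ITIH3 panels is the mean floor of 0.75. ALB lies higher and AMBP lower in both STYK1 arrays, and the other 6 genes differ by less than the larger of their replicate gaps.

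Albumin transcripts gave a clear signal on every array. ALB gave 10.51 and 10.42 on the control arrays and 10.60 and 10.60 on STYK1 arrays 1 and 2. Both STYK1 arrays were above both controls, so the groups did not overlap. The means were 10.47 ± 0.06 (SD, n = 2) in the controls and 10.60 ± 0.0013 (SD, n = 2) on the STYK1 arrays. Their difference was 0.14 ± 0.09 (SE), a ratio of 1.10 with a 95% interval of 0.936 to 1.29, which did not pass the test (limma, adjusted p = 0.979). In the RefSeq gene order of GRCh38.p14, AFP and AFM, the albumin relatives alpha-fetoprotein and the vitamin E carrier afamin, follow ALB as the next protein-coding genes. AFP, the fetal counterpart of albumin, gave 9.21 and 9.32 on the control arrays and 9.31 and 9.33 on the STYK1 arrays, with overlapping groups. AFM had a mean signal of 0.70, under the mean floor of 0.75, so the row of genes holds members with a clear signal and one without.

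The 250 bases before the start of ALB, AHSG, FETUB and AMBP are shown. This stretch was searched for letters that liver-enriched factors are known to read, which not every window holds. AHSG and FETUB are neighbours of which only the former gave a clear signal. For FETUB the first window is shown. The RefSeq table of GRCh38.p14 held windows for 7 of the 10 genes, and none for TTR, ITIH2 and GC. Capitals mark matches to any of 5 motifs on either strand, which do not overlap in these windows: C/EBP (TTGCNNAA), the CCAAT box (CCAAT), the TATA box (TATAAA), FOXA (TGTTTNC) and HNF4 (CAAAGTNCA). Each sequence is written 5′ to 3′ on the strand of its gene and ends at the base before the start.
ALB, chr4:73404037-73404286, plus strand: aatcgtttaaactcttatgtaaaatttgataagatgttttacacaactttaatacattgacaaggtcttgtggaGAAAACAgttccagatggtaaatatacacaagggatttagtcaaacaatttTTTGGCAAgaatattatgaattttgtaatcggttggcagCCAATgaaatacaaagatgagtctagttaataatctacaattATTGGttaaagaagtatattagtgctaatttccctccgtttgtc
AHSG, chr3:186612810-186613059, plus strand: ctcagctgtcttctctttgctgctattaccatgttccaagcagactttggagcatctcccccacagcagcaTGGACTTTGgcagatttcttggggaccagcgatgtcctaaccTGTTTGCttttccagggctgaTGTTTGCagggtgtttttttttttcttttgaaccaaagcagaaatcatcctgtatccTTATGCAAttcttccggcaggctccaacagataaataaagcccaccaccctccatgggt
FETUB, chr3:186635719-186635968, plus strand: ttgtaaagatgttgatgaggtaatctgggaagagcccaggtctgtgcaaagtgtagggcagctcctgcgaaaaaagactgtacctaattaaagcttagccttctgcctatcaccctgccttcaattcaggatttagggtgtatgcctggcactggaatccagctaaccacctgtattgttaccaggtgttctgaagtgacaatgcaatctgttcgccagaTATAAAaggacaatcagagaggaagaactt
AMBP, chr9:114078301-114078550, minus strand: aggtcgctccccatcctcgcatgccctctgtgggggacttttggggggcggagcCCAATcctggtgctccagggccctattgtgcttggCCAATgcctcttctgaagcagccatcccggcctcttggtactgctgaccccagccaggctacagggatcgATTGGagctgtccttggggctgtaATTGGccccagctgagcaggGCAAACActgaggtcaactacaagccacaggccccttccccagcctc

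The ALB window held CCAAT boxes on opposite strands, a C/EBP match 125 to 118 bases before the start and a FOXA match further out. Shares of windows are over the 35116 of this length in the table. AHSG held FOXA letters at 2 places, where 15.5% of all windows hold them at least at 1, an HNF4 match, found in 0.94% of windows, and a C/EBP match, found in 9.05%. The first FETUB window held a TATA box 30 to 25 bases before its start, found in 10.7% of windows, and none of the other motifs. A second start of FETUB is listed in the table, whose window held C/EBP, CCAAT and FOXA letters. AMBP held the CCAAT letters at 4 places, found at least once in 32% of windows, and a FOXA match 47 to 41 bases before the start. Among the windows not shown, that of ITIH3, which lay at the floor, also held a FOXA match 47 to 41 bases before its start. That of ITIH4 held CCAAT and FOXA letters. The RBP4 windows differed: C/EBP and TATA letters shared a window, CCAAT and TATA letters shared another, and a further window held no match. All these matches describe letters and not binding, and their relation to the signals was not tested.

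The fetuins are cystatin-like glycoproteins; AHSG, or fetuin-A, keeps calcium phosphate in solution, and FETUB inhibits zinc proteases of the astacin family. AHSG gave 10.06 and 10.07 on the control arrays and 10.05 and 9.98 on STYK1 arrays 1 and 2. Both STYK1 arrays were lower than both controls, and the difference of −0.05 (SE 0.09) was smaller than the gap of 0.07 between the STYK1 replicates. The ratio was 0.966 with a 95% interval of 0.826 to 1.13 (limma, adjusted p = 0.995). FETUB gave 0.69 and 0.86 on the control arrays and 0.76 and 0.82 on the STYK1 arrays. It was above the floor of its own array on 3 of 4 arrays but close to it, so its difference of 0.01 lies within background and is not read as a level. In the gene order FETUB lies between AHSG and HRG, which encodes histidine-rich glycoprotein, and KNG1, the kininogen gene, follows. HRG had a mean signal of 0.56, under the floor, and KNG1 one of 6.14, so this row also holds genes with and without a clear signal. KNG1 gave 6.17 and 6.32 on the control arrays and 5.88 and 6.17 on the STYK1 arrays, a difference of −0.22 (limma, adjusted p = 0.979).

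Transthyretin, TTR, carries thyroxine and binds RBP4, the plasma carrier of retinol, which keeps that small protein from being lost through the kidney. TTR gave 7.08 and 7.33 on the control arrays and 7.22 and 7.09 on STYK1 arrays 1 and 2. The control values enclosed both STYK1 values, and the gap of 0.25 between the controls was larger than the difference of −0.05 (SE 0.12). The ratio was 0.966 with a 95% interval of 0.774 to 1.21 (limma, adjusted p = 0.996). RBP4 varied least of the 8 genes, with 9.16 and 9.12 in the controls and 9.16 and 9.11 on the STYK1 arrays. Its difference was −0.0026 ± 0.09 (SE), a ratio of 0.998 with a 95% interval of 0.854 to 1.17 (limma, adjusted p = 1), and its sign turned to 0.0087 after quantile normalization. The log ratio of RBP4 to TTR within an array moved by 0.05 between the groups, against a standard deviation of 0.20 between the controls (exact two-sided permutation test, p = 1).

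AMBP encodes a precursor that is cut into alpha-1-microglobulin, a heme and radical scavenger, and bikunin, the protease inhibitor chain to which the heavy chains of the ITIH genes are joined through chondroitin sulfate. AMBP gave 8.73 and 8.81 on the control arrays and 8.62 and 8.38 on STYK1 arrays 1 and 2. Both STYK1 arrays were lower than both controls, and STYK1 replicate 2 was lowest by 0.24. The means were 8.77 ± 0.06 (SD, n = 2) and 8.50 ± 0.17 (SD, n = 2). The difference was −0.27 ± 0.12 (SE), a ratio of 0.832 with a 95% interval of 0.673 to 1.03, which did not pass the test (limma, adjusted p = 0.979; unadjusted p = 0.0754). Without STYK1 replicate 2 the difference was −0.15, and without STYK1 replicate 1 it was −0.38 (limma, unadjusted p = 0.0352, adjusted p = 0.956).

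ITIH2 and ITIH3 encode heavy chains. ITIH2 gave 9.74 and 9.84 on the control arrays and 9.90 and 9.81 on the STYK1 arrays, with overlapping groups, a difference of 0.06 (SE 0.09) and a ratio of 1.05 with a 95% interval of 0.882 to 1.24 (limma, adjusted p = 0.991). The log ratio of AMBP to ITIH2, centred on its mean over the 4 arrays, was 0.18 and 0.15 in the controls, and −0.09 and −0.24 on STYK1 arrays 1 and 2. That pair and the pair of RBP4 and TTR were chosen as partners in plasma complexes after the single values had been seen. The ratio differed by −0.33 between the groups, which did not overlap (exact two-sided permutation test, p = 0.333, the smallest that 2 arrays against 2 can give). AMBP alone had already separated the groups and ITIH2 differed in the other direction, so nothing further is read from this ratio. ITIH3 gave 0.48 and 0.83 on the control arrays and 0.70 and 0.57 on the STYK1 arrays, above the floor of its array on control replicate 2 and on no other, so no change is read from its difference of −0.02. Its neighbour in the gene order, ITIH1, had a mean signal of 0.72, also under the floor. ITIH5 and ITIH6, further relatives, had means of 0.45 and 0.60, both under it.

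**Figure D2:**
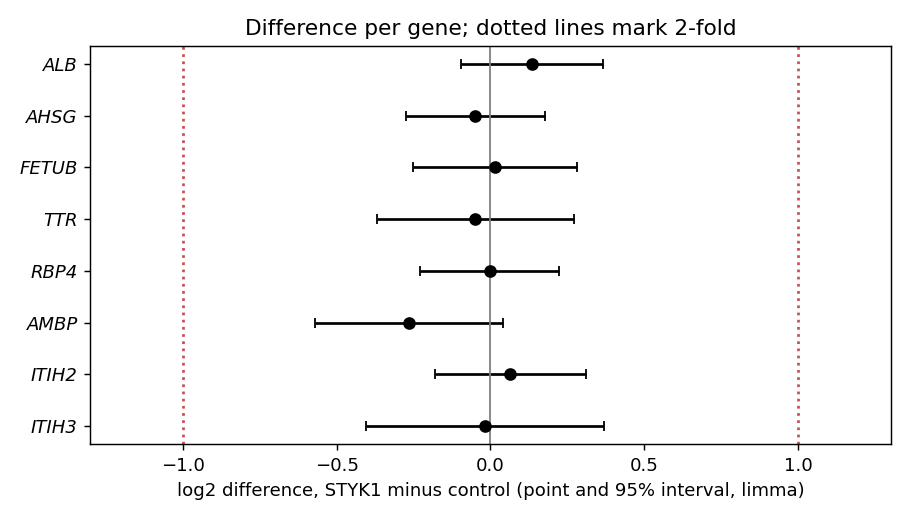
Log2 difference, STYK1 minus control (x axis), of the 8 measured carrier genes (y axis), with the 95% interval from limma on all 4 arrays; the dotted lines mark a 2-fold change. All 8 intervals cross 0 and lie within the dotted lines, and those of FETUB and ITIH3 describe signals at the floor.

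As a group the carrier genes had 3 differences above 0 and 5 below, with a median of −0.01, beside 50.8% of all genes above 0, 49.2% below and a median of 0.0022. These counts include FETUB, above 0, and ITIH3, below 0, which lay at the floor. The groups did not overlap for 3 of the 8, ALB, AHSG and AMBP, beside 32.9% of all genes. For 6 of the 8 the larger of the replicate gaps of the 2 groups exceeded the difference between the groups, the exceptions being ALB and AMBP. That count was not made over all genes, so nothing particular to the carrier genes is read from it. The pooled standard deviation between replicates had a median of 0.06 over the 6 genes above the floor on every array, from 0.03 for RBP4 to 0.14 for TTR. It had a median of 0.12 over the 11385 genes above the floor by their mean. The 2 sets are unlike, as the 6 genes had signals of 7.08 to 10.6 and the 11385 a median signal of 2.05. The lower spread is therefore not read as a trait of the carrier genes.

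Individual arrays moved different carrier genes in different directions. The 7 genes above the mean floor include FETUB, which lay close to it. Among the 7, control replicate 2 had the highest reading of 4 and control replicate 1 and STYK1 replicate 2 the lowest of 3 each. FETUB was among those highest in control replicate 2 and among those lowest in control replicate 1. The mean deviation from each gene's own mean was −0.02 in control replicate 1, 0.05 in control replicate 2, and 0.03 and −0.05 on STYK1 arrays 1 and 2. The groups therefore overlapped in the mean of the list. AMBP reached −0.25 in STYK1 replicate 2, while ALB was 0.07 above its mean on that array.

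**Figure D3:**
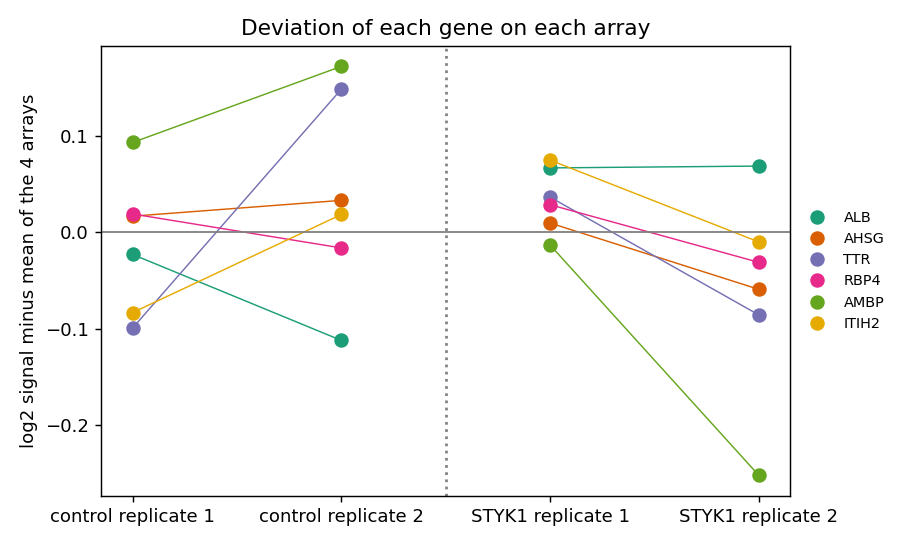
Log2 signal minus the gene's mean over the 4 arrays (y axis) on each array (x axis) for the 6 carrier genes above the floor on all arrays; lines join the replicates of a group. AMBP has the widest range, 0.42, and RBP4 the narrowest, 0.06.

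The listed liver transcription factors gave no call either. All 17 measured factors of 22 listed were above the floor, 8 with a difference above 0 and 9 below and a median of −0.02, and 0 passed (limma). At an unadjusted p under 0.05 there was 1 of the 17, lower, beside 1.93% of all genes; it was DBP, a PAR bZIP factor that binds the albumin promoter. DBP gave 2.04 and 2.30 on the control arrays and 1.75 and 1.88 on the STYK1 arrays, a difference of −0.36 (limma, adjusted p = 0.979). FOXA3, a forkhead factor of hepatocytes, gave 3.06 and 3.05 on the control arrays and 2.73 and 1.73 on STYK1 arrays 1 and 2, a difference of −0.82 with an SE of 0.34 (limma, adjusted p = 0.979). FOXA3 and AMBP were both lowest on STYK1 array 2, which is not particular to these genes. Of the 7 carrier genes above the mean floor 3 were lowest on that array, AHSG, RBP4 and AMBP, and 1, ALB, was highest. FOXA2 and ZHX2 were also lowest there, but DBP and CEBPA were lowest on STYK1 array 1. The mean deviation of the 17 factors on STYK1 array 2 was −0.09. A link between FOXA3 and AMBP was not tested. CEBPA, the C/EBP factor of mature hepatocytes, differed by −0.23, and FOXA2, whose groups overlapped, by −0.26. ZHX2, a repressor of AFP, gave 4.77 and 4.77 on the control arrays and 4.90 and 4.61 on the STYK1 arrays. HNF4A had no probe set of its own here and was not analysed here.

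Genes of the remaining plasma proteins had more differences below 0 than above, without a call. Of 49 listed genes 45 were measured and 35 lay above the floor, with 14 differences above 0 and 31 below over the 45, beside 49.2% of all genes below, and a median of −0.05 (0 passed by limma; 1 higher and 1 lower at an unadjusted p under 0.05, beside 1.79% and 1.93% of all genes). FGA, the fibrinogen alpha chain, gave 9.45 and 9.40 on the control arrays and 9.11 and 9.29 on the STYK1 arrays, a difference of −0.22, while the beta and gamma chains FGB and FGG differed by 0.01 and −0.05. SERPINA6, the cortisol carrier, differed by −0.17, and SERPINA7, a thyroxine carrier beside TTR, by −0.06 with overlapping groups. The 1 lower gene at an unadjusted p under 0.05 was HABP2, a hyaluronan-binding protease, with a difference of −0.27 from readings near the floor. The 1 higher was SHBG, whose mean of 0.56 lay under the floor. Among the 35 genes above the floor 0 were higher at that p. A1BG, an immunoglobulin-like plasma protein, differed by 0.21, also from readings near the floor (limma, unadjusted p = 0.0623). Transferrin, TF, gave 9.54 and 9.53 on the control arrays and 9.58 and 9.60 on the STYK1 arrays. Haptoglobin, HP, and hemopexin, HPX, which clear hemoglobin and heme as alpha-1-microglobulin does for heme, differed by −0.11 and −0.10, with overlapping groups for HP. The mean deviation of the 35 genes above the floor was 0.01 and 0.05 in the controls and −0.03 and −0.02 on the STYK1 arrays.

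Genes that receive or handle the carried ligands gave no call. Of 24 listed, 20 were measured and 10 lay above the floor, beside 11385 of all 22395 genes. Of these genes 0 passed, with 0 at an unadjusted p under 0.05, beside 3.72% of all genes (limma). STRA6, the RBP4 receptor, LRAT, which esterifies retinol, and the kidney receptors CUBN and LRP2 had means of 0.63, 0.45, 0.53 and 0.55, all under the floor. FCGRT, the receptor that returns albumin from endosomes, gave 1.67 and 1.77 on the control arrays and 1.66 and 1.77 on the STYK1 arrays. DIO1, which activates thyroxine, differed by −0.19, RDH10, a retinol dehydrogenase, by −0.11, TTPA, the tocopherol transfer protein, by −0.22, and VDR, the vitamin D receptor, by −0.10 at the floor, all with overlapping groups. HAS2 and TNFAIP6, which make hyaluronan and move ITIH heavy chains onto it, had means of 0.51 and 0.58, under the floor. HAS3, which also makes hyaluronan, had a mean of 1.09 and was above the floor on all 4 arrays.

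The machinery through which the carrier proteins enter the secretory route had more differences above 0 than below. Of 46 listed genes 44 were measured, 33 with a difference above 0 and 11 below and a median of 0.07, beside 50.8% of all genes above 0 and 49.2% below, and 0 passed (limma). At an unadjusted p under 0.05 there were 2 of the 44, both higher, beside 1.79% of all genes: SPCS2, a signal peptidase subunit, and SSR3, a subunit of the translocon-associated protein complex. SPCS2 gave 1.04 and 1.02 on the control arrays and 1.67 and 1.49 on the STYK1 arrays, a difference of 0.55 with an SE of 0.10 (limma, adjusted p = 0.979), and it has several pseudogenes whose transcripts its probes could also detect. SSR3 gave 3.43 and 3.49 on the control arrays and 3.90 and 3.76 on the STYK1 arrays, a difference of 0.37 (limma, adjusted p = 0.979). SRP54, of the signal recognition particle, differed by 0.21, and SEC13, of the COPII coat, by −0.23. PDIA3, a folding enzyme of the endoplasmic reticulum, had a mean of 0.63, under the floor. The mean deviation of the 43 genes above the floor was −0.08 and 0.01 in the controls, and 0.09 and −0.01 on STYK1 arrays 1 and 2, so the groups overlapped and STYK1 replicate 1 was highest.

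**Figure D4:**
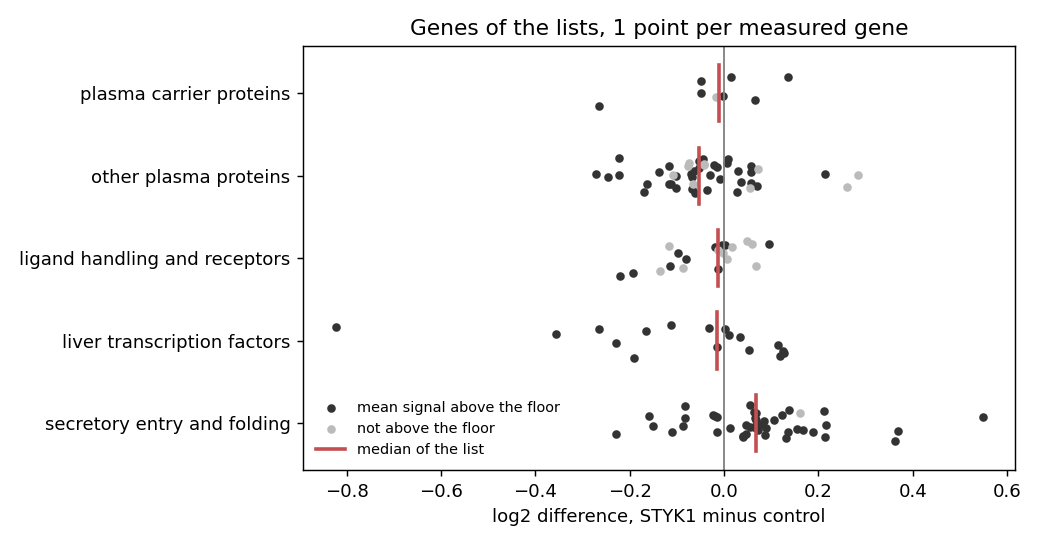
Log2 difference, STYK1 minus control (x axis), of every measured gene of 5 lists (y axis), dark where the mean signal lay above the floor and grey where it did not, with a red bar at the median of each list. Medians lie between −0.05 and 0.07, and FOXA3 at −0.82 and SPCS2 at 0.55 are the outermost points.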

How the data were processed

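Total RNA was amplified, converted to single-stranded cDNA and labelled with biotin for Affymetrix arrays, per the labels' protocols. Log2 values were deposited as 1 table with a column for each of 4 arrays. The tool named is the Transcriptome Analysis Console, per the submitters' processing notes, and how it summarized and normalized the probes, and the build, are not given in the sources used. The base was inferred: read as natural logarithms, the array maxima of 11.3 would stand for at least 82224, above the 65535 of a 16-bit scanner. Array medians lay between 0.615 and 0.629, and no further normalization was applied. The table holds no detection calls or scan dates, and the number of arrays limits the precision.

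Probe sets were named where the platform annotation gave exactly 1 symbol (23871 of 53617), updated by Entrez ID through RefSeq (GRCh38.p14). Groups were compared with limma 3.58.1 (R 4.3.3): lmFit with group as the only term, eBayes, two-sided, Benjamini-Hochberg over all 53617 probe sets, threshold 0.05, with 2 residual and 2.71 prior degrees of freedom. Intervals are per gene and not adjusted. The code was tested on simulated data. Signals of different probe sets are not comparable, so no order of levels is given. Members and lists, including olfactory receptors as a floor, were chosen with earlier results of these data known. The genes named were the members, STYK1, and relatives or neighbours of members. In each other list the 4 genes with the smallest unadjusted p above the floor were also named. From the lists of cell type markers, counts above the floor are given in place of those genes. Added after their values were seen were FGB, FGG, TF, HP, HPX, SERPINA7, SHBG, STRA6, LRAT, CUBN, LRP2 and FCGRT. The same holds for HAS2, HAS3, TNFAIP6, ITIH5, ITIH6, PDIA3, CYP2E1 and CYP3A4.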

Additional observations from a re-analysis of the deposited data

How the results depend on the processing

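Over 11 alternatives (trend or robust eBayes, quantile normalization, centring on array medians, 1 probe set per gene, probe sets above the floor, a replicate block and each array left out), the differences of ALB, AHSG, AMBP and ITIH2 kept their sign, and no carrier gene passed (lowest adjusted p 0.956, limma). In all, 78 of 87 carrier gene differences kept their sign. Leaving out 1 array at a time, where a lone array is taken to vary as the other group does, gave −0.070 to 0.10 for FETUB, −0.19 to 0.16 for ITIH3, −0.033 to 0.027 for RBP4 and −0.17 to 0.075 for TTR; RBP4 also turned to 0.0087 after quantile normalization. Under the same omissions, 3 to 5 carrier genes were lower and 0 to 1 had an unadjusted p under 0.05, AMBP without STYK1 replicate 1; 0 probe sets passed in each (from 0 to 0), where all 4 arrays gave 1. With the replicate number as a block, which leaves 1 residual degree of freedom, 0 probe sets passed and 0 carrier genes had an unadjusted p under 0.05; deviations of same-numbered arrays correlated at −0.044, and nothing in the labels pairs them. At an unadjusted p under 0.05 the fit over all probe sets counted 2489, a fit on 1 probe set per gene 1002 (the same genes gave 832 in the fit over all) and a fit on probe sets above the floor 969; the latter fits held fewer probe sets and estimated the spread anew. Every probe set of a member gave no alternative, as each gene had 1. ITIH3, whose mean lay under the floor, has no value where probe sets were restricted to those above it. The cause of the other changes was not tested.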

Other observations

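The pattern over the 4 arrays was compared between each carrier gene and the other listed genes, as the distance between their values after each gene was centred on its own mean. The nearest to AMBP were HABP2 at 0.09, ASGR2, a subunit of the asialoglycoprotein receptor that clears plasma glycoproteins, at 0.11 and SPCS1 at 0.15, where AMBP itself lay 0.32 from a flat line. The nearest to ITIH2 were SURF4, a cargo receptor of the endoplasmic reticulum, at 0.02, the translocon subunit SSR1 at 0.03 and the signal peptidase subunit SEC11C at 0.04. The nearest to AHSG were FGG at 0.02, SEC31A at 0.04 and A2M at 0.04, and the nearest to TTR were VWF at 0.04, P4HB at 0.05 and APOA2 at 0.05. VWF is an endothelial gene under the floor here, so nearness over 4 arrays also joins genes without a clear signal. ALB had its nearest gene, AQP1, at 0.07, also under the floor, with ALB 0.15 from a flat line.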
